A study of Homo sapiens with 72 samples.

Results

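The dual-specificity MAP kinase phosphatases are enzymes that switch off MAP kinases, the ERK, JNK and p38 kinases that carry growth and stress signals to the nucleus. The 9 members described here are DUSP1 (ENSG00000120129), DUSP2 (ENSG00000158050), DUSP4 (ENSG00000120875), DUSP5 (ENSG00000138166), DUSP6 (ENSG00000139318), DUSP8 (ENSG00000184545), DUSP10 (ENSG00000143507), DUSP14 (ENSG00000276023) and DUSP16 (ENSG00000111266). They were chosen by gene symbol from the 61541 genes listed in each of 11 comparison tables that the authors deposited.

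A MAP kinase is active while a threonine and a tyrosine in its activation loop carry phosphate, and these phosphatases remove both. DUSP1, DUSP2, DUSP4 and DUSP5 are inducible nuclear enzymes, and several of their transcripts are short-lived early-response RNAs. DUSP6 is a cytoplasmic phosphatase selective for ERK, DUSP8, DUSP10 and DUSP16 act mainly on JNK and p38, and DUSP14 is a small atypical member that lacks the kinase-docking domain of the others. Sodium arsenite, an oxidative poison, activates p38 and JNK and makes cells assemble stress granules, cytoplasmic bodies of RNA and protein that form through G3BP1 and its paralog G3BP2.

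The study set RNAs bound by G3BP1 beside the RNAs that change when it is lost or returned. U2OS cells, a human osteosarcoma line, were sequenced in 2 experiments, every group as 2 libraries. The first held wild-type cells, G3BP1/2 knockout cells, and knockout cells 24 h after transient Lipofectamine transfection of a G3BP1 transgene (called rescue). The second held 6 groups, all on the G3BP1/2 knockout: untransfected cells, cells 24 h after Lipofectamine transfection of WT G3BP1 (wild-type rescue), and cells 24 h after the same with an NTF2 deletion mutant of G3BP1 (NTF2-deletion rescue), each without stress and after 2 h of 200 uM sodium arsenite. Through its NTF2 domain G3BP1 dimerises and binds partner proteins. RNA immunoprecipitation (RIP) compared 3 immunoprecipitates with 3 inputs from FlpIn 293 Trex cells, an embryonic kidney line in which stable FLAG-G3BP1 was induced for 24 h by 1 ug/mL tetracycline.

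The labels name no mock-transfected group, so transfection and transgene cannot be told apart in any rescue comparison, and they give neither the clones of the knockout line nor the share of cells transfected. The second experiment had no wild-type cells. In these bulk libraries, fewer cells of a type and less RNA per cell cannot be told apart. Nothing in the labels says that the libraries of a group came from separate cultures, so p-values measure the spread between these libraries, which may be technical.

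Libraries held between 38590157 and 52470072 reads in genes in the first experiment. Those of the second were shallower, between 10793184 and 27755473. G3BP1 stood at 12603 and 12628 normalised reads in knockout, 18087 and 19023 in wild-type and 20087 and 20375 in rescue libraries of the first experiment. G3BP2 stood at 6399 and 6610 in knockout, 8091 and 8622 in wild-type and 7666 and 7740 in rescue libraries of that experiment, a log2 fold change of -0.36 for knockout over wild-type (SE 0.06 and adjusted p 1.27e-09) in the authors' deposited table. Reads of both targeted genes were thus still counted in the knockout libraries. In the second experiment G3BP1 stood at 3815 and 3884 in untreated knockout, 591137 and 621709 in untreated wild-type rescue and 804718 and 839200 in untreated NTF2-deletion rescue libraries, and G3BP2 at 1660 and 1677, 2401 and 2432, and 2397 and 2495 in the same groups. The 5 U2OS markers checked (VIM, RUNX2, SPARC, COL1A1, THY1) had base means of at least 116 in the knockout against wild-type and wild-type rescue against knockout tables, where PTPRC, PECAM1 and ALB, markers of other cell types, lay between 0.269 and 21.3 and EPCAM at 453 and 93.7. In the RIP table NEFL stood at 1078, PAX2 at 45.8, LHX1 at 36.9 and NEFM at 4.87 as markers of the kidney line, with PTPRC and ALB at 0, PECAM1 at 0.275 and EPCAM at 911. NEFL, LHX1 and PAX2 stood at 3823, 307 and 146 in the knockout against wild-type table, so these genes do not set the kidney line apart from U2OS cells here. Of the U2OS markers, THY1, COL1A1 and SPARC stood at 0.154, 26.4 and 32.0 in the RIP table and 7420, 87411 and 68055 in the knockout against wild-type table. RUNX2 stood at 69.0 and 924 and VIM at 11619 and 72390 in the same tables. Base means were not scaled for depth between tables. The part of these transcripts in the results was not tested.

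Promoters are printed for 3 members that rose with arsenite in knockout cells and for DUSP14, which was not called, so that the letters before the start can be seen beside the values. Of the 9 members, 7 were searched in the RefSeq promoter table (GRCh38.p14). DUSP5 had no entry there, and DUSP4 was left out because member entries on its chromosome were not used. The 250 bases before each annotated start were searched on both strands for 8 motifs. Sequences read 5′ to 3′ toward the start. Capitals mark the cAMP response element TGACGTCA, which CREB and ATF factors bind, and its core TGACG, which the full element contains, on either strand (a core on the other strand reads CGTCA). DUSP1 lies on the minus strand at chr5:172771196-172771445, DUSP8 on the minus strand at chr11:1572272-1572521, DUSP2 on the minus strand at chr2:96145441-96145690 and DUSP14 on the plus strand at chr17:37489641-37489890.
DUSP1: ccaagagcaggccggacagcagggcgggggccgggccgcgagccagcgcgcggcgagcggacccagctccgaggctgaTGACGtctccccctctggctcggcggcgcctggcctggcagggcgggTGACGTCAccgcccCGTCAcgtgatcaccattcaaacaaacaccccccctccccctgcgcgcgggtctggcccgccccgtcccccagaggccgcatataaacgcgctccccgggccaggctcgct
DUSP8: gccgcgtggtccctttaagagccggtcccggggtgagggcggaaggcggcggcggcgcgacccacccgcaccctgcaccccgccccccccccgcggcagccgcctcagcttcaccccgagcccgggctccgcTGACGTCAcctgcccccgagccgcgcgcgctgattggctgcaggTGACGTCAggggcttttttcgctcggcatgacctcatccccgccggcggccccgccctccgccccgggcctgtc
DUSP2: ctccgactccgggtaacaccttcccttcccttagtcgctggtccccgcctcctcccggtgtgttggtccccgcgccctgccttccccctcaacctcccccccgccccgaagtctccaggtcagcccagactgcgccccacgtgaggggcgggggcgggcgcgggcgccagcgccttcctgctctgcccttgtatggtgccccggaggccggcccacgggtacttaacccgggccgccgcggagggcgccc
DUSP14: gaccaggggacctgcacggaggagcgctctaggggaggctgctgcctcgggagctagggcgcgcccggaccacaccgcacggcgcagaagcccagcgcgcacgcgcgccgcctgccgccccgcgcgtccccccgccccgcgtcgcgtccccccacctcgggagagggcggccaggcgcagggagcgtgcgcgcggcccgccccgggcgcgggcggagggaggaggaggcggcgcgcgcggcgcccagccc

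The full element TGACGTCA was found in 2 of the 8 starts of these 7 genes, once in DUSP1, beginning 125 bases before the start, and at 118 and 74 bases in DUSP8. It was found in 1.65% of all 35114 promoters of the same length. The core TGACG was found in DUSP1 and DUSP8 alone among the 7 genes, and in 21.2% of all promoters. DUSP2, DUSP10 and DUSP16 also rose with arsenite in knockout cells and held neither the element nor its core. A link between the element and the response was not tested. The E-box CACGTG was found in DUSP1 and DUSP2 and in 6.35% of all promoters, and the TATA box TATAAA, 30 bases before the start, in DUSP1 and in 10.7%. The GC box GGGCGG was found in 7 of the 8 starts, DUSP6 being the exception, and in 42.6% of all promoters. The AP-1 site TGANTCA (6.57% of all promoters), the heat shock unit GAANNTTC (5.78%) and the CArG box (1.16%) were found in 0 of the 8. A match of letters is a description and shows no binding.

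Arsenite raised 6 of the 7 tested members in G3BP1/2 knockout cells, and none fell. Over all 15497 genes tested in that comparison, 8.56% were called higher and 10.9% lower at an adjusted p under 0.05. The median log2 fold change of the tested members was 1.93, beside -0.0018 over all tested genes. Levels below are reads per library divided by the library's size factor (normalised reads), recovered from the deposited base means, and fold changes are the authors' DESeq2 values unless limma is named.

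DUSP1, a nuclear phosphatase that acts on p38, JNK and ERK, had the largest change. Its untreated knockout libraries held 173 and 173 normalised reads and the arsenite libraries 2413 and 2906. The groups lay far apart, with a ratio of means of 15.4. The authors' deposited table gave a log2 fold change of 3.79 (SE 0.13 and adjusted p 4.28e-197). DUSP2, a nuclear phosphatase known from activated immune cells, went from 230 and 254 to 1943 and 2282 normalised reads, a ratio of means of 8.73. Its log2 fold change in the authors' deposited table was 3.02 (SE 0.12 and adjusted p 1.95e-133). DUSP5, a nuclear phosphatase specific for ERK, stood at 168 and 216 normalised reads untreated and at 1261 and 1272 with arsenite. Neither gene's groups overlapped. For DUSP5 the authors' deposited table listed a log2 fold change of 2.61 (SE 0.14 and adjusted p 1.48e-77).

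The JNK and p38 phosphatases had smaller fold changes. DUSP8 went from 232 and 265 to 945 and 1069 normalised reads, with a log2 fold change of 1.93 in the authors' deposited table (SE 0.14 and adjusted p 4.15e-42). DUSP10 went from 67 and 73 to 230 and 235 normalised reads, a log2 fold change of 1.48 in the authors' deposited table (SE 0.23 and adjusted p 1.44e-09). Untreated and treated libraries were separate for both genes. DUSP16 went from 1255 and 1315 to 1908 and 1995 normalised reads, a log2 fold change of 0.60 in the authors' deposited table (SE 0.09 and adjusted p 4.57e-10). The atypical DUSP14 overlapped, with 198 and 243 normalised reads untreated and 218 and 228 with arsenite. Its log2 fold change in the authors' deposited table was 0.03 (SE 0.19 and adjusted p 0.960). DUSP6 was at 12 and 12 normalised reads untreated and 20 and 22 with arsenite, too low to carry an adjusted p in that table, and limma gave a log2 fold change of 0.74 (SE 0.30 and adjusted p 0.0601).

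**Figure D1:**
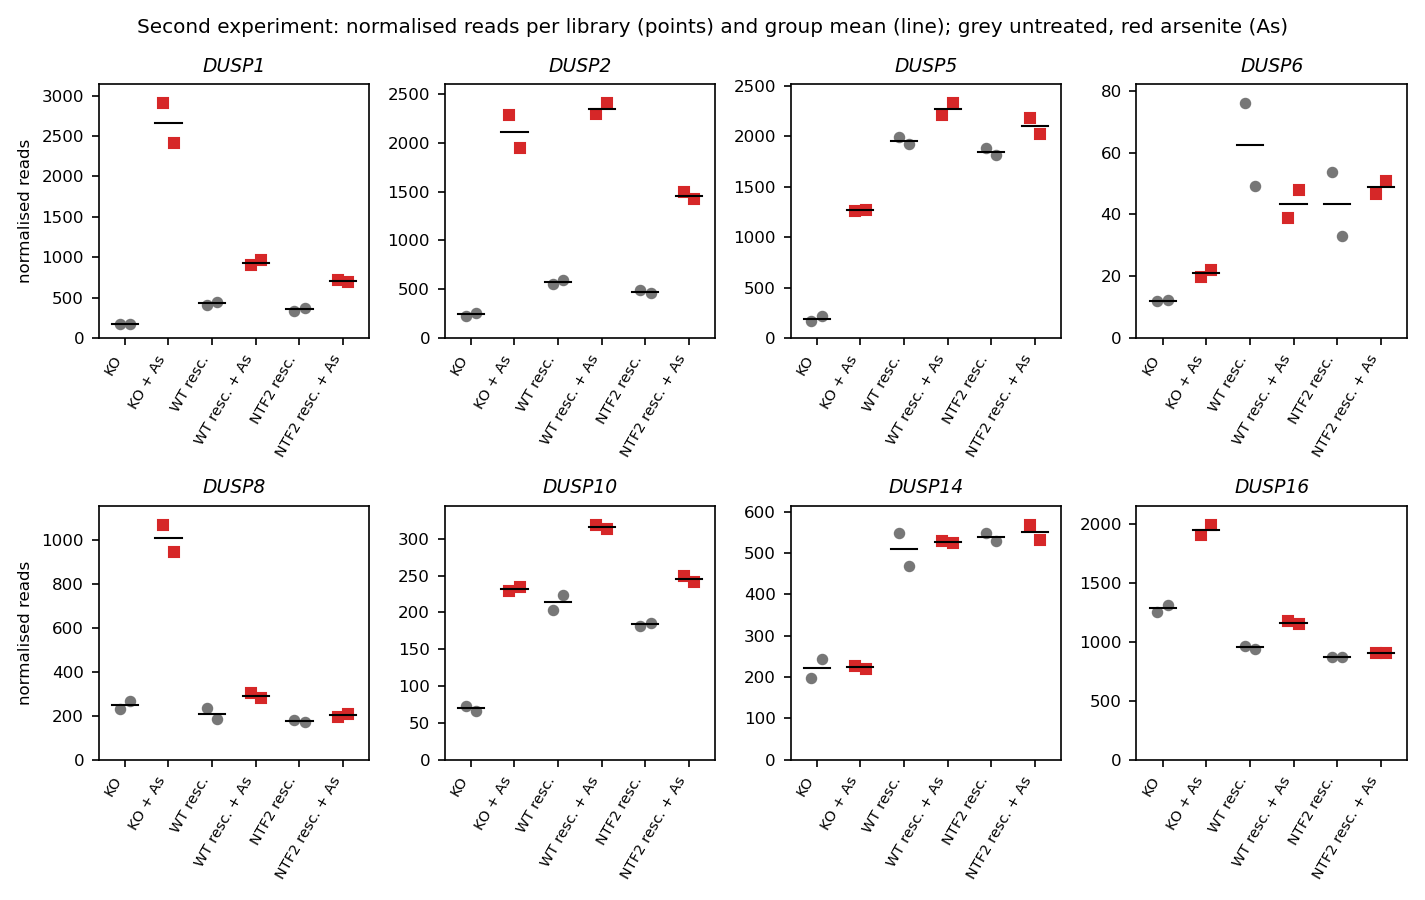
Normalised reads per library of 8 members in the 6 groups of the second experiment, on linear axes from 0. Points are the 2 libraries of each group and lines their mean; grey circles are untreated and red squares arsenite-treated (As) cells, with KO for knockout, WT resc. for wild-type rescue and NTF2 resc. for NTF2-deletion rescue. DUSP1 and DUSP8 are highest in arsenite-treated knockout cells, at means of 2659.6 and 1007, while DUSP5 is at 1811 or more in every rescued library.

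Log2 fold changes under arsenite were smaller in both kinds of rescued cells than in knockout cells for DUSP1, DUSP2, DUSP5, DUSP8, DUSP10 and DUSP16. With wild-type rescue 6 of 8 tested members were called higher and none lower, beside 8.18% and 12.2% of 13635 tested genes. With NTF2-deletion rescue 2 of 7 tested members, DUSP1 and DUSP2, were called higher and none lower, beside 2.43% and 6.14% of 11578 tested genes. The median log2 fold change of the tested members was 0.33 and 0.18 in these tables, beside 0.0094 and 0.010 over all tested genes. Treated wild-type rescue libraries were deeper, at 27755473 and 19074162 reads in genes against 16164909 and 16062841 with treated NTF2-deletion rescue. The part of depth in the counts of called genes was not tested.

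DUSP1 went from 413 and 451 to 899 and 970 normalised reads in wild-type rescue, and from 335 and 374 to 697 and 721 in NTF2-deletion rescue. These were log2 fold changes of 1.03 (SE 0.09) and 0.81 (SE 0.11) in the authors' deposited tables. Treated libraries of either rescue stayed below both treated knockout libraries, at 2413 and 2906. DUSP2 went from 557 and 594 to 2292 and 2405 normalised reads with wild-type G3BP1 and from 457 and 489 to 1420 and 1498 with the deletion form. The authors' deposited tables gave log2 fold changes of 1.94 (SE 0.07) and 1.43 (SE 0.09) for DUSP2. Its treated wild-type rescue libraries lay just above the treated knockout libraries, the closest values being 2292 and 2282.

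DUSP5 was already high before stress in rescued cells. It went from 1917 and 1994 to 2210 and 2325 normalised reads in wild-type rescue, a log2 fold change of 0.19 in the authors' deposited table (SE 0.05 and adjusted p 0.00156). That call was not made by limma (0.21, SE 0.077 and adjusted p 0.0546). In NTF2-deletion rescue it went from 1811 and 1877 to 2024 and 2178, 0.18 in the authors' deposited table (SE 0.07 and adjusted p 0.0987).

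DUSP8 went from 184 and 233 to 280 and 303 normalised reads in wild-type rescue and from 169 and 181 to 194 and 209 in NTF2-deletion rescue. In the authors' deposited tables the first was called at 0.40 (SE 0.13 and adjusted p 0.0112), and the second was not called at 0.13 (adjusted p 0.745). In the limma fit the first call was lost without 1 untreated (0.32, adjusted p 0.125) or 1 treated (0.44, adjusted p 0.0609) wild-type rescue library. DUSP10 went from 203 and 224 to 313 and 319 with wild-type G3BP1 (0.48, SE 0.12 and adjusted p 0.000719, in the authors' deposited table). With the deletion form it went from 181 and 186 to 241 and 250, at 0.28 in the authors' deposited table (adjusted p 0.230) and 0.42 by limma (adjusted p 0.0225). The limma call was lost without any 1 of the 4 NTF2-deletion rescue libraries (adjusted p 0.0698 to 0.153). DUSP16 was called with wild-type rescue, at 0.26 (SE 0.07 and adjusted p 0.000767) in the authors' deposited table, from 943 and 966 to 1149 and 1176 normalised reads. With NTF2-deletion rescue it stood at 868 and 870 before and 907 and 908 after stress, 0.06 in the authors' deposited table (adjusted p 0.860). DUSP14 was not called in either rescue, at log2 fold changes of 0.03 and 0.02 in the authors' deposited tables, and its treated and untreated libraries overlapped in each.

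The difference between arsenite responses was tested for each gene from fold changes that share no library. Wild-type rescue minus knockout was lower for 6 of 8 tested members and higher for none, beside 2.68% and 1.82% of 15648 tested genes. The differences were -2.76 for DUSP1 (SE 0.15 and adjusted p 5.53e-71), -2.42 for DUSP5 (SE 0.15), -1.53 for DUSP8 (SE 0.19), -1.08 for DUSP2 (SE 0.14), -1.0 for DUSP10 (SE 0.26) and -0.35 for DUSP16 (SE 0.11 and adjusted p 0.0435) on the log2 scale. NTF2-deletion rescue minus knockout was lower for the same 6 of 8 and higher for none, beside 3.08% and 4.04% of 15442 tested genes. There DUSP1 stood at -2.98 (SE 0.17 and adjusted p 1.65e-69), DUSP5 at -2.43, DUSP8 at -1.80, DUSP2 at -1.59, DUSP10 at -1.21 and DUSP16 at -0.55 (SE 0.13 and adjusted p 0.000513). DUSP14, at 0.0015 and -0.0058, and DUSP6, at -0.65 and -0.28, were called in neither. By limma the DUSP1 differences were -2.82 and -2.93. The DUSP16 call for wild-type rescue was lost when 1 untreated or 1 treated wild-type rescue library was left out of the limma fit (adjusted p 0.0673 and 0.0854).

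**Figure D2:**
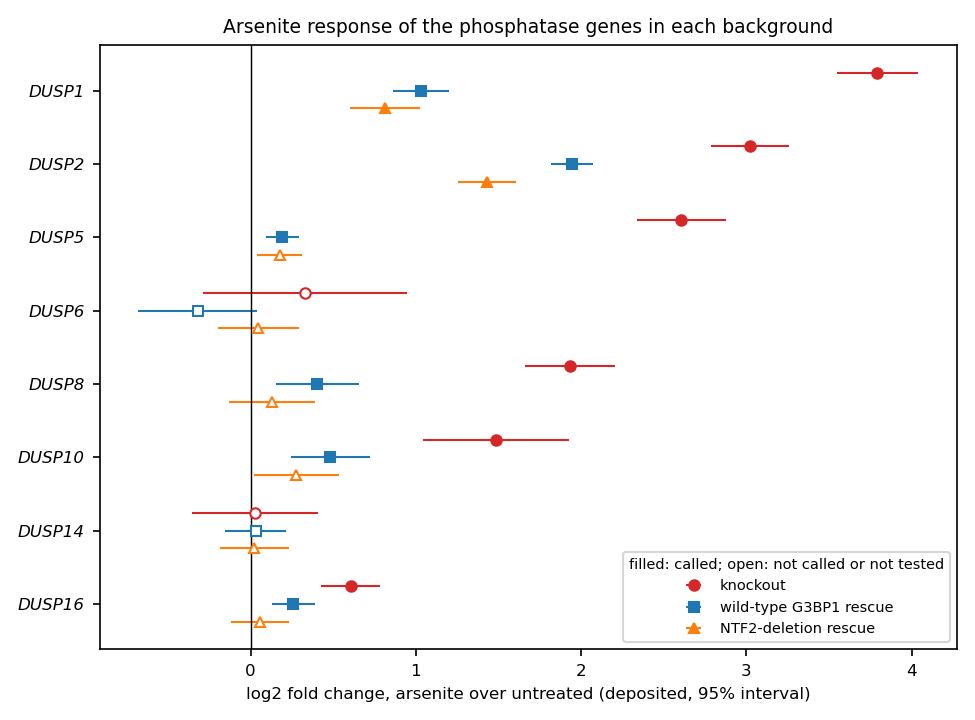
Deposited log2 fold change of arsenite-treated over untreated cells (x axis) for 8 members in knockout (red circles), wild-type rescue (blue squares) and NTF2-deletion rescue (orange triangles). Bars are 95% intervals and filled symbols were called at an adjusted p under 0.05. For DUSP1, DUSP2, DUSP5, DUSP8 and DUSP10 the knockout value lies to the right of both rescues with no overlap of the intervals.

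A smaller fold change and a smaller end level are separate measurements, and the members split on the second. Between treated wild-type rescue and treated knockout cells, 3 of 8 tested members were lower and 2 higher, beside 19.3% and 26.1% of 16533 tested genes. DUSP8 was lower, at -1.64 (SE 0.23 and adjusted p 4.48e-12), DUSP1 at -1.33 (SE 0.19 and adjusted p 3.04e-11) and DUSP16 at -0.68 (SE 0.13) on the log2 scale. DUSP14 was higher by 1.27 (SE 0.25) and DUSP5 by 1.00 (SE 0.18). DUSP2, at 0.30 (adjusted p 0.122), DUSP6, at 1.26 (adjusted p 0.0627), and DUSP10, at 0.69 (adjusted p 0.0639), were not called. These differences were built from tables that share the untreated knockout libraries, which makes the summed error too large. The values themselves also depart from the direct limma contrast, as for DUSP10 (0.69 against 0.44) and DUSP6 (1.26 against 1.01). Deposited fold changes can lie nearer 0 than limma's, by amounts that differ between tables. The direct limma contrast called 4 higher and 3 lower (36.6% and 31.6% of 16654 tested genes), adding DUSP6 (1.01, adjusted p 0.00424) and DUSP10 (0.44, adjusted p 0.00218). That for DUSP6 was lost without 1 treated wild-type rescue library (adjusted p 0.0567).

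For NTF2-deletion rescue against knockout, both treated, 4 of 8 tested members were lower and 3 higher, beside 19.2% and 24.3% of 16248 tested genes. DUSP8 stood at -2.19 (SE 0.25), DUSP1 at -1.75 (SE 0.20), DUSP16 at -1.07 (SE 0.13) and DUSP2 at -0.41 (SE 0.17 and adjusted p 0.0416). DUSP6 (1.36, SE 0.58 and adjusted p 0.0437), DUSP14 (1.31, SE 0.26) and DUSP5 (0.86, SE 0.19) were the higher members. DUSP10 was not called (0.29, adjusted p 0.526). The DUSP6 call was lost when differences were centred on the median of all genes (adjusted p 0.0821). These differences of deposited values have the same limits as those for wild-type rescue.

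In untreated cells of the second experiment most members differed between rescued and knockout cells. With wild-type rescue 6 of 8 tested members were higher than in knockout cells and 1 was lower, beside 23.0% and 19.1% of 20738 tested genes. With NTF2-deletion rescue the counts were also 6 and 1, beside 22.8% and 18.7% of 20911 tested genes. Both comparisons share the untreated knockout libraries, as does the arsenite response of knockout cells, so they are not independent of each other. Among genes whose base mean reached 100, the median shift (log2) in these tables was 0.18 and 0.17, and it was 0.22 and 0.19 where the rescued cells were arsenite-treated. The calls of these 6 higher members did not depend on subtracting that shift.

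DUSP5 had the largest difference. It stood at 168 and 216 normalised reads in knockout cells, 1917 and 1994 in wild-type rescue and 1811 and 1877 in NTF2-deletion rescue. The ratio of means was 10.2 and 9.62. The log2 fold changes in the authors' deposited tables were 3.34 (SE 0.13 and adjusted p 1.91e-147) and 3.25 (SE 0.13 and adjusted p 7.93e-134). DUSP1, at 173 and 173 in knockout, reached 413 and 451 with wild-type G3BP1 and 335 and 374 with the deletion form, log2 fold changes of 1.31 (SE 0.19) and 1.03 (SE 0.20) in the authors' deposited tables. DUSP2 rose from 230 and 254 to 557 and 594, and to 457 and 489, at 1.25 (SE 0.16) and 0.97 (SE 0.17) in the authors' deposited tables. No rescued library of these 3 genes overlapped a knockout library.

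DUSP6, the ERK-selective cytoplasmic enzyme, was the least abundant of the tested members, at 12 and 12 normalised reads in knockout, 49 and 76 in wild-type rescue and 33 and 54 in NTF2-deletion rescue. The authors' deposited tables called it higher at 1.94 (SE 0.47 and adjusted p 0.00014) and 1.45 (SE 0.50 and adjusted p 0.0102). DUSP10 rose from 67 and 73 to 203 and 224, and to 181 and 186, at 1.55 (SE 0.27) and 1.34 (SE 0.27) in the authors' deposited tables. DUSP14 rose from 198 and 243 to 469 and 549, and to 529 and 549, at 1.20 (SE 0.18) and 1.29 (SE 0.17) in the authors' deposited tables. For all 3 the groups were separate. DUSP16 was the member that fell, from 1255 and 1315 to 943 and 966, and to 868 and 870, at -0.40 (SE 0.10 and adjusted p 0.000214) and -0.54 (SE 0.10 and adjusted p 9.21e-07) in the authors' deposited tables. DUSP8 was not called, at -0.23 (adjusted p 0.447) and -0.47 (adjusted p 0.0705) in the authors' deposited tables, and limma called it lower in each (adjusted p 0.0485 and 0.000412). The first of these limma calls was lost in 10 of 12 fits that left out 1 library (adjusted p 0.0510 to 0.581) and the second in none.

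Across the 6 groups of the second experiment the order of levels differed between members. DUSP1 ran from untreated knockout (mean 173) through NTF2-deletion rescue (355), wild-type rescue (432), treated NTF2-deletion rescue (709) and treated wild-type rescue (934) to treated knockout (2659.6), with no neighbours overlapping. DUSP5 had untreated knockout (192) and treated knockout (1266) below all 4 rescued groups (1844 to 2268). DUSP14 formed a low pair, the knockout groups at 221 and 223, and 4 rescued groups from 509 to 549.5 whose neighbours overlapped. DUSP16 ran the other way, with the 4 rescued groups (869 to 1163) below untreated (1285) and treated (1951) knockout cells.

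The comparison of treated rescued cells with untreated knockout cells combines both steps. With wild-type rescue 6 of 8 tested members were higher and none lower in the authors' deposited table (25.1% and 19.8% of 22192 tested genes), and with NTF2-deletion rescue 6 were higher and 1 lower (23.3% and 19.6% of 21660). Limma made the same higher calls, and where it differed, for DUSP16 and DUSP8, its values are given below. The log2 fold changes of DUSP5 were 3.60 and 3.46, those of DUSP2 3.32 and 2.61 and those of DUSP1 2.47 and 2.04 in the authors' deposited tables. DUSP10 stood at 2.18 and 1.78, DUSP6 at 1.59 and 1.69 and DUSP14 at 1.30 and 1.33 in the authors' deposited tables. The other JNK and p38 phosphatases, DUSP16 and DUSP8, were not called higher in either. DUSP16 was not called with wild-type rescue (-0.08, adjusted p 0.512) and lower with NTF2-deletion rescue (-0.46, adjusted p 1.35e-05) in the authors' deposited tables. With wild-type rescue limma called DUSP16 lower (-0.14, adjusted p 0.0343), a call lost without 1 untreated knockout library or either treated wild-type rescue library (adjusted p 0.0818 to 0.179). Centring on the median of all genes also called it lower there (-0.31, adjusted p 0.00192). DUSP8 was called in neither, at 0.29 (adjusted p 0.194) and -0.25 (adjusted p 0.347) in the authors' deposited tables. Limma called DUSP8 lower with NTF2-deletion rescue (-0.30, adjusted p 0.0259), a call lost without 1 untreated knockout or 1 treated NTF2-deletion rescue library (adjusted p 0.203 and 0.160).

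**Figure D3:**
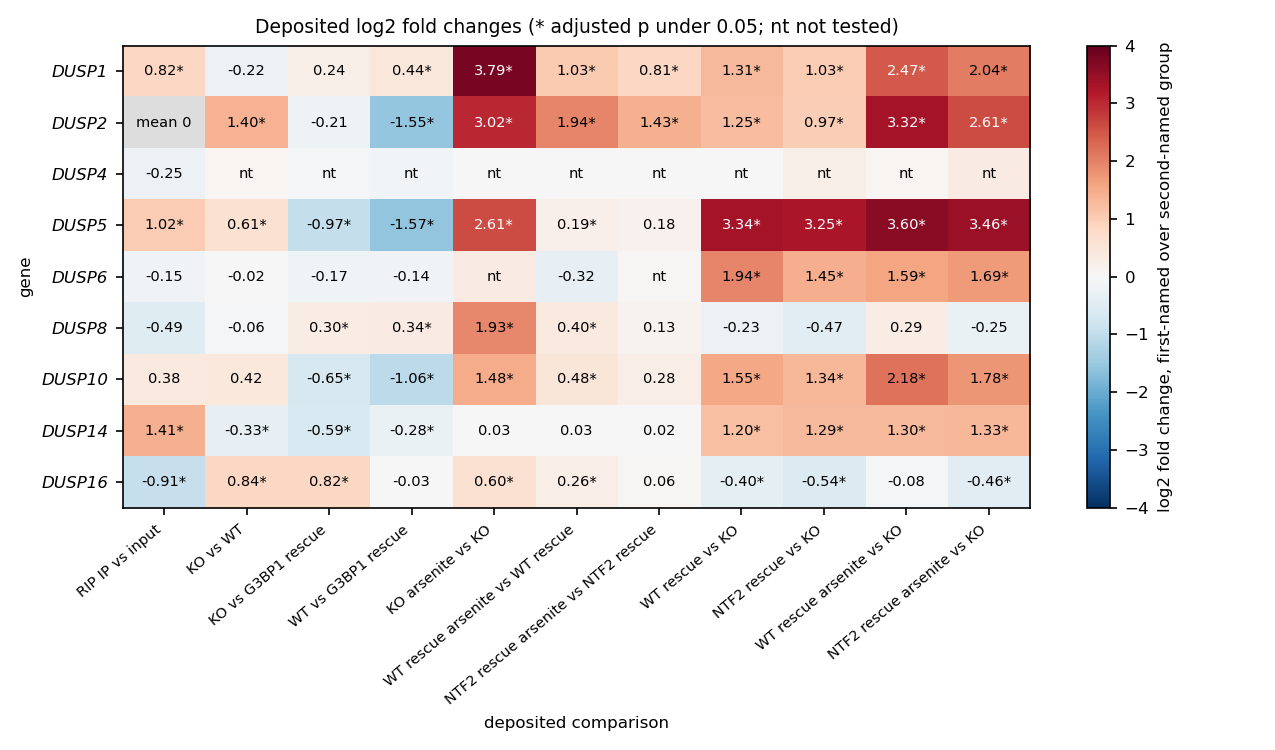
Deposited log2 fold changes of the 9 members (rows) in the 11 deposited comparisons (columns), first-named over second-named group, coloured from blue (lower) to red (higher). An asterisk marks an adjusted p under 0.05, nt a gene without an adjusted p, and mean 0 a gene listed at a base mean of 0. DUSP5 has the widest range over the U2OS tables, from -1.57 to 3.60.

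The first experiment, with G3BP1 at 20087 and 20375 normalised reads after rescue, gave smaller rescue effects for most members. Knockout against rescue cells had 2 of 8 tested members higher and 3 lower in the knockout, beside 16.1% and 21.5% of 22945 tested genes. DUSP5 stood at 448 and 528 normalised reads in knockout and 925 and 1013 in rescue libraries, a log2 fold change of -0.97 for knockout over rescue in the authors' deposited table (SE 0.12 and adjusted p 1.04e-13). DUSP10, at 343 and 346 against 528 and 571, and DUSP14, at 1025 and 1052 against 1536 and 1599, were also lower in the knockout. Their log2 fold changes were -0.65 (SE 0.14) and -0.59 (SE 0.09) in the authors' deposited table. DUSP16 was higher in the knockout, with 5265 and 5541 against 2981 and 3074 normalised reads and 0.82 (SE 0.06 and adjusted p 9.59e-41) in the authors' deposited table. DUSP8 was at 1078 and 1088 against 793 and 942, a log2 fold change of 0.30 (SE 0.11 and adjusted p 0.0204) in the authors' deposited table. That call was lost in the limma fit without 1 rescue library (0.20, adjusted p 0.0639).

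The inducible pair DUSP1 and DUSP2 differed between the experiments. DUSP1 stood at 941 and 1060 normalised reads in knockout and 809 and 868 in rescue libraries of the first experiment, so that rescue lay below knockout, where it lay above in the second. The change was not called in the authors' deposited table (0.24 for knockout over rescue, SE 0.11 and adjusted p 0.0771) and was called by limma (0.25, SE 0.08 and adjusted p 0.00836) and after centring on the median of all genes (0.29, adjusted p 0.0255). Without 1 knockout or 1 rescue library limma did not call it (adjusted p 0.147 and 0.109). DUSP2 stood at 390 and 425 in knockout and 462 and 484 in rescue libraries, not called at -0.21 in the authors' deposited table (adjusted p 0.262). DUSP6, at 29 and 36 against 35 and 44, was not called either.

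The rescue effect of the second minus the first experiment was tested directly, a comparison chosen after the data were seen. It was higher for 7 of 8 tested members and lower for none, beside 20.3% and 17.0% of 16369 tested genes. The differences on the log2 scale were 2.37 for DUSP5 (SE 0.18 and adjusted p 3.47e-38), 1.77 for DUSP6 (SE 0.57), 1.55 for DUSP1 (SE 0.22 and adjusted p 1.72e-11), 1.04 for DUSP2 (SE 0.22), 0.90 for DUSP10 (SE 0.30), 0.61 for DUSP14 (SE 0.20) and 0.41 for DUSP16 (SE 0.12). DUSP8 stood at 0.072 (SE 0.24 and adjusted p 0.862). Experiment, depth and transgene level cannot be told apart in it. The knockout cells themselves held DUSP1 at 20.9 and 22.9 CPM (reads scaled to the library total) in the first experiment and 13.0 and 13.1 in the second, and DUSP2 at 8.68 and 9.21 against 17.4 and 19.1.

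**Figure D4:**
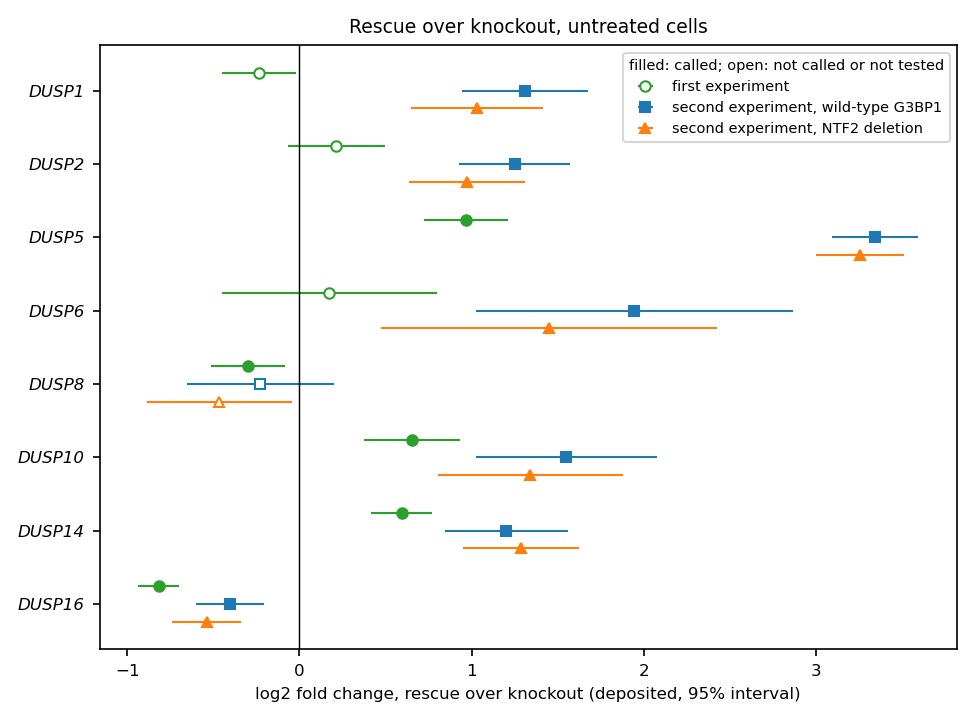
Deposited log2 fold change of rescued over knockout cells without stress (x axis) for 8 members in the first experiment (green circles) and, in the second, with wild-type (blue squares) and NTF2-deletion (orange triangles) G3BP1. Bars are 95% intervals and filled symbols were called at an adjusted p under 0.05. DUSP5 lies at 0.97 in the first and at 3.34 and 3.25 in the second experiment, and DUSP16 lies below 0 in all 3.

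Without transfection, 4 of 8 tested members differed between knockout and wild-type cells. In knockout cells 3 were higher and 1 lower, beside 18.4% and 19.4% of 25724 tested genes. DUSP2 stood at 390 and 425 normalised reads in knockout and 134 and 159 in wild-type libraries, a log2 fold change of 1.40 in the authors' deposited table (SE 0.20 and adjusted p 6.32e-12). DUSP16 stood at 5265 and 5541 against 2851 and 3167, with 0.84 in the authors' deposited table (SE 0.07 and adjusted p 2.48e-31). DUSP5 stood at 448 and 528 against 305 and 321, with 0.61 (SE 0.16 and adjusted p 0.000774) in the authors' deposited table. None of the 3 overlapped. DUSP14 was lower, at 1025 and 1052 against 1228 and 1380, with -0.33 (SE 0.10 and adjusted p 0.00556) in the authors' deposited table.

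DUSP10, at 343 and 346 normalised reads in knockout and 251 and 256 in wild-type libraries, missed the threshold in the authors' deposited table (0.42, SE 0.18 and adjusted p 0.0502). DUSP1, at 941 and 1060 against 1124 and 1215, stood at -0.22 in the authors' deposited table (SE 0.11 and adjusted p 0.0951). Limma called both, DUSP10 higher (0.44, adjusted p 0.00104) and DUSP1 lower (-0.23, adjusted p 0.0142). The DUSP1 call was lost without 1 knockout or 1 wild-type library (adjusted p 0.115 to 0.213). DUSP8 (-0.06, adjusted p 0.729) and DUSP6 (-0.02, adjusted p 0.976) were not called in the authors' deposited table.

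**Figure D5:**
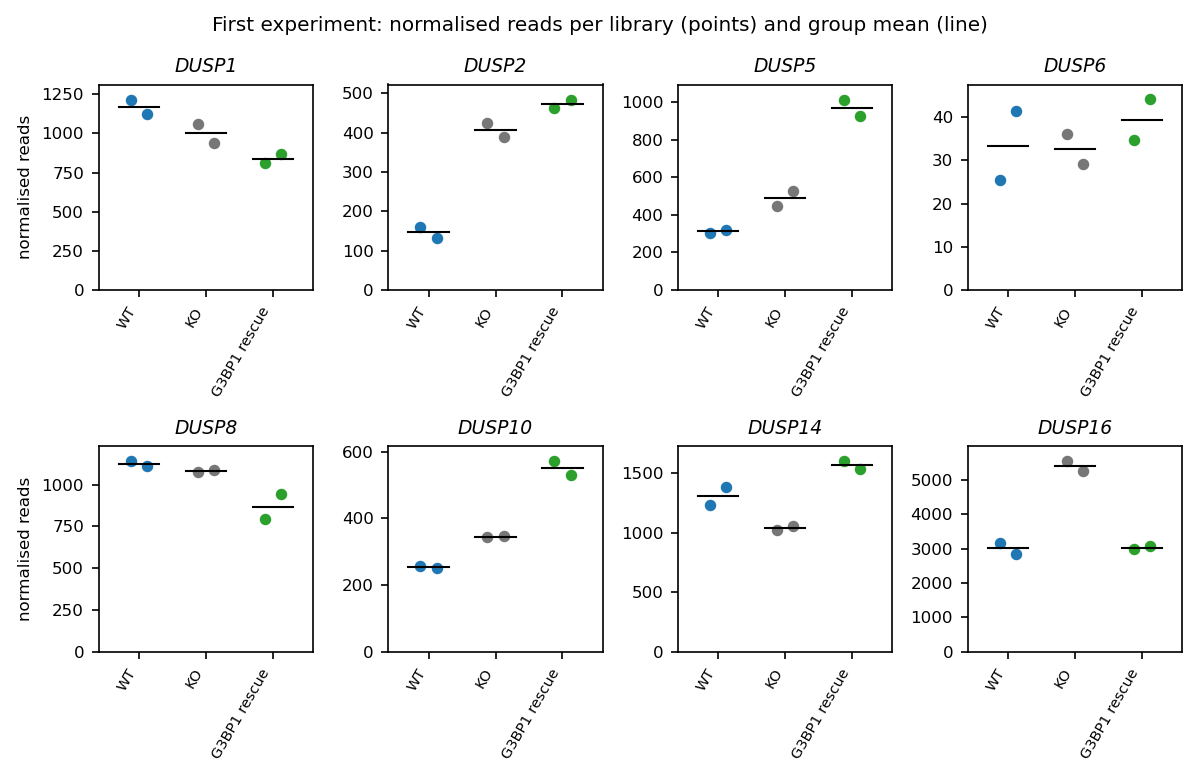
Normalised reads per library of 8 members in wild-type (WT, blue), knockout (KO, grey) and G3BP1 rescue (green) cells of the first experiment, on linear axes from 0, with points for the 2 libraries and a line for their mean. DUSP16 is at 5265 and 5541 in knockout and between 2851 and 3167 in the other groups. DUSP2, DUSP5, DUSP10 and DUSP14 are highest in rescue libraries.

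Rescued and wild-type cells differed in 6 members. Wild-type against rescue cells had 2 members higher and 4 lower of 8 tested, beside 15.2% and 20.4% of 22861 tested genes. DUSP16 overlapped between the groups, 2851 and 3167 against 2981 and 3074 normalised reads, with -0.03 in the authors' deposited table (SE 0.07 and adjusted p 0.808). DUSP5 was lower in wild-type cells, at -1.57 (SE 0.13 and adjusted p 2.58e-33), DUSP2 at -1.55 (SE 0.17), DUSP10 at -1.06 (SE 0.15) and DUSP14 at -0.28 (SE 0.09 and adjusted p 0.00844) in the authors' deposited table. For these genes rescue libraries lay above the wild-type libraries. The DUSP14 call was lost in the limma fit without 1 wild-type library (-0.18, adjusted p 0.0654). DUSP1 (0.44, SE 0.10) and DUSP8 (0.34, SE 0.11) were higher in wild-type cells in the authors' deposited table. All 3 tables of this experiment share libraries in pairs.

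The rescues with wild-type and NTF2-deletion G3BP1 were compared without stress, with stress and in their arsenite response. G3BP1 reads differed between them, at 784731 and 803026 in treated wild-type and 955601 and 977487 in treated NTF2-deletion rescue libraries (normalised). Untreated libraries differed the same way, at 591137 and 621709 against 804718 and 839200. The form of the transgene and its level cannot be told apart in these comparisons. Without stress 0 of 8 tested members were called by the normal test of the deposited values (0 at an unadjusted p under 0.05) and 0 by limma after adjustment, beside 0.0185% of 16210 tested genes called by the first and 0.973% of 16654 by limma. Without and with arsenite, the normal test subtracts values that share the untreated knockout libraries. Its summed error is then too large, so few calls do not show that the rescues are alike. Intervals of the direct limma contrast were -0.45 to -0.11 for DUSP1, -0.43 to -0.13 for DUSP2 and -0.24 to 0.07 for DUSP5 (95% intervals, log2, NTF2-deletion minus wild-type). They were built from limma's SEs with a normal distribution, which makes them narrower than limma's own t distribution would. Before adjustment the intervals so built leave out 0 for DUSP1, DUSP2, DUSP8 and DUSP16, and the lowest adjusted p of limma was 0.0751, for DUSP2. With arsenite in both, DUSP2 was lower with the deletion form (-0.72, SE 0.16 and adjusted p 0.0183), the 1 member called, beside 0.0483% of 16553 tested genes called lower and 0.0302% higher. Limma called 4 members lower there: DUSP2 (-0.69, SE 0.08), DUSP8 (-0.53, SE 0.12), DUSP1 (-0.40, SE 0.09) and DUSP16 (-0.36, SE 0.06), beside 0.781% of 16654 tested genes. Those for DUSP8 and DUSP1 were lost without any 1 of the 4 treated rescue libraries (adjusted p 0.105 to 0.283 and 0.0886 to 0.369), and that for DUSP16 without 1 treated wild-type rescue library (adjusted p 0.0605). Their libraries were separate, as for DUSP2 at 1420 and 1498 against 2292 and 2405 normalised reads and DUSP1 at 697 and 721 against 899 and 970. By the normal test of deposited values, the arsenite response itself differed for DUSP2 alone (-0.51, SE 0.11 and adjusted p 0.00288). Of 15865 tested genes, 0.101% were called lower and 0.227% higher. Limma did not call the DUSP2 difference (-0.40, adjusted p 0.325). Deposited fold changes can lie nearer 0 than limma's, as for DUSP10 with arsenite in NTF2-deletion rescue (0.28 against 0.42). The amount differs between tables, and a difference of 2 deposited values carries that.

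In the immunoprecipitate of FLAG-G3BP1 from the kidney line, 3 of 8 tested members were enriched over input and 1 was depleted. Of all 22856 genes tested, 24.7% were called enriched and 31.4% depleted, so the share of members called is close to that of all genes. DUSP14 had the highest value, a log2 fold change of 1.41 (SE 0.12 and adjusted p 5.52e-29, base mean 895) in the authors' deposited table. DUSP5 followed at 1.02 (SE 0.16 and adjusted p 1.98e-09) and DUSP1 at 0.82 (SE 0.19 and adjusted p 4.04e-05) in the authors' deposited table. DUSP16 was depleted at -0.91 (SE 0.16 and adjusted p 2.77e-08) in the authors' deposited table. DUSP10 (0.38), DUSP6 (-0.15), DUSP4 (-0.25) and DUSP8 (-0.49, adjusted p 0.0833) were not called in the authors' deposited table. With Wald statistics divided by their robust spread over genes, 9.34, no member was called. With so many genes called, that spread can include differences between immunoprecipitate and input, so this rescaling cannot tell them from noise. Reads per library were not recovered for this table, and DUSP2 was listed at a base mean of 0.

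DUSP4, a nuclear phosphatase close to DUSP1 and DUSP2, was not measurable in U2OS cells. Its reads ran from 0 to 6 per library in the first experiment and from 0 to 4 in the second, and it carried no adjusted p in any U2OS table. In the kidney line it had a base mean of 159 in the authors' deposited table.

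Other genes of the pathway were taken from 7 lists. Of the 10 other MAP kinase phosphatases listed, 8 were tested for the arsenite response of knockout cells, with 2 higher and 0 lower, beside 8.56% and 10.9% of all tested genes. DUSP3 (VHR), an atypical phosphatase of ERK and JNK, was the highest at 0.65 (SE 0.09) in the authors' deposited table, below the 5 largest values of the members. With wild-type rescue in untreated cells 4 of 9 tested genes of that list were higher and 2 lower, beside 23.0% and 19.1% of all tested genes. The median was 0.49, beside -0.028 over all tested genes. The highest was DUSP7, an ERK phosphatase related to DUSP6, at 1.79 (SE 0.14) in the authors' deposited table.

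Of the MAP kinases themselves, 1 of 9 tested was higher and 0 lower with arsenite in knockout cells, a share close to the 8.56% of all tested genes called higher. It was MAPK14 (p38 alpha), at 0.37 (SE 0.11 and adjusted p 0.00684) in the authors' deposited table. Of the MAP2 kinases 1 of 7 was higher, MAP2K3, an activator of p38, at 0.57 (SE 0.13) in the authors' deposited table. Of the MAP3 kinases 5 of 14 were higher and 1 lower, led by MAP3K14 (NIK) at 0.92 (SE 0.10) in the authors' deposited table. Of the MAPK-activated kinases 1 of 10 was higher, RPS6KA4 (MSK2) at 0.35 (SE 0.13), and of the ERK ligands and receptors 0 of 8 were higher and 2 lower, FGFR1 lowest at -0.36 (SE 0.07), in the authors' deposited table. MAP2K3 stood at 2.57 (SE 0.09) with wild-type and 2.58 (SE 0.09) with NTF2-deletion rescue over untreated knockout cells in the authors' deposited tables.

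The ERK feedback and output genes, such as the Sprouty and ETV families, were also counted. Of 15 tested, 10 were higher and 2 lower with wild-type rescue in untreated cells (23.0% and 19.1% of all tested genes, median log2 fold change 0.72, beside -0.028 over all), with FOSL1 highest at 3.49 (SE 0.10) and IER3 lowest at -0.46 (SE 0.08) in the authors' deposited table. In knockout against wild-type cells of the first experiment 0 were higher and 12 lower (18.4% and 19.4% of all tested genes, median -1.0, beside 0.0098 over all), with SPRED3 lowest at -2.20 (SE 0.11) in the authors' deposited table. Of the members, DUSP2, DUSP5 and DUSP16 were called higher there and DUSP14 lower. With arsenite in knockout cells 4 of 14 tested were higher and 2 lower (8.56% and 10.9% of all tested genes), FOSL1 highest at 2.99 (SE 0.11) and PHLDA1 lowest at -0.60 (SE 0.17) in the authors' deposited table. In the RIP comparison 3 of 15 tested were enriched and 9 depleted (median -1.02), and of the MAP3 kinases 1 of 14 was enriched and 11 depleted (median -1.31). Of all tested genes 24.7% were called enriched and 31.4% depleted, with a median of -0.26.

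DUSP5 had the widest span of deposited log2 fold changes over the 10 U2OS tables (5.17), and 10055 genes whose base mean reached 100 in each table were ranked by their mean absolute distance from it. The 5 nearest were CFLAR-AS1 (0.34), the metallothionein MT2A (0.39), the AP-1 subunit FOSL1 (0.46), the ubiquitin ligase adaptor KLHL21 (0.46) and the phosphatase regulator PPP1R15A (0.53). CFLAR-AS1 overlaps another gene on the other strand, and whether the counting used the strand is not given in the sources used here, so its reads are uncertain. With arsenite in knockout cells these 5 stood at 1.86, 2.81, 2.99, 0.45 and 2.84, beside 2.61 for DUSP5, and with wild-type rescue in untreated cells at 2.75, 2.68, 3.49, 3.41 and 2.87, beside 3.34, in the authors' deposited tables. The likeness is a description over tables that share libraries.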

How the data were processed

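Of the 72 samples of the series, 24 libraries in 11 groups were used and 48 were not analysed here. The members and pathway lists were chosen with earlier results of these data known. The submitters' processing notes name STAR, an aligner, with the versions 2.7.0f and 1.5.3, and DESeq2 (2.11.40.6), which made the authors' comparison tables, per the labels. Which STAR version belongs to which libraries was not settled here. Genome build, annotation, counter and strand setting are not given in the sources used here. Per the labels' protocols, poly-A RNA was sequenced from a directional kit. Each of the 11 deposited tables gives, per gene, the mean normalised signal (base mean, from the file headers where a table has one), a log2 fold change with its SE, the Wald score, and the p-value with its adjusted value. The 4 tables without a header were read by the column order of the others, and 4 summary lines that name no gene were removed from each.

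A gene was called at a deposited adjusted p under 0.05. Differences between 2 comparisons were divided by the root of their summed squared SEs and tested against a normal distribution, two-sided, with Benjamini-Hochberg adjustment over genes whose base mean reached 10 in each of the tables. Of 8 such difference tests, 1 was added after the data were seen. For some genes the deposited log2 fold changes lay nearer 0 than limma's, by amounts that differed between tables. Differences of deposited values carry this. Whole reads of the 18 U2OS libraries were solved from base means shared between tables, and size factors recomputed from them differed by at most 0.000141 in relative terms. Those libraries carry no replicate numbers. Log2(normalised reads + 1) of these reads was fitted with limma (3.58.1, R 4.3.3) as the alternative. The fit was run on simulated counts with a fixed spread that was not matched to these libraries, so that run does not show its error rate here. RIP reads were not recovered. Named genes are the 9 members, the highest and lowest called gene of each list whose base mean reached 100, the 5 genes nearest to DUSP5, and G3BP1 and G3BP2. Python 3.11.15, pandas 2.3.3 and scipy 1.17.1 were used.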

Additional observations from a re-analysis of the deposited data

Results flagged for a closer look

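The arsenite response of 6 members differed between wild-type rescue and knockout cells by a test of the difference itself. On the log2 scale, rescue minus knockout was -2.76 for DUSP1, -2.42 for DUSP5, -1.53 for DUSP8, -1.08 for DUSP2, -1.0 for DUSP10 and -0.35 for DUSP16. The same 6 differed between NTF2-deletion rescue and knockout cells, at -2.98 for DUSP1, -2.43 for DUSP5, -1.80 for DUSP8, -1.59 for DUSP2, -1.21 for DUSP10 and -0.55 for DUSP16. The knockout libraries are shared by both sets of differences.

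Between the rescues, the response of DUSP2 differed by -0.51 (NTF2-deletion minus wild-type) by the same test, a call that limma did not make.

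The effect of rescue in untreated cells differed between the experiments for 7 members, in a comparison chosen after the data were seen. Second minus first experiment was 2.37 for DUSP5, 1.77 for DUSP6, 1.55 for DUSP1, 1.04 for DUSP2, 0.90 for DUSP10, 0.61 for DUSP14 and 0.41 for DUSP16 on the log2 scale. For DUSP16 both effects were below 0, at -0.40 and -0.82.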

How the results depend on the processing

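Of 2316 values recomputed for single members under the alternatives, 2079 kept direction and side of the threshold, 44 lost the call, 161 gained it and 32 changed sign. Dividing RIP Wald statistics by their robust spread, which can include differences between immunoprecipitate and input, left 0 members called. For the arsenite response of NTF2-deletion minus wild-type rescue, limma called 0 at pseudocounts of 0.5, 1 and 5. For the same rescues with arsenite in both, 0 were called at 0.01 and 4 by limma at each pseudocount. Changes of sign were all in values not called. Centring on the median of all genes turned DUSP16 in wild-type against rescue to 0.013, DUSP14 in the arsenite response of wild-type rescue minus knockout to -0.020 and DUSP8 between the experiments to -0.031. Limma turned DUSP14 in the response of NTF2-deletion rescue minus knockout to 0.0046 at pseudocounts of 1 and 0.5 and to 0.0050 at 5. Centring added 5 calls: DUSP8 as depleted in RIP (-0.61, adjusted p 0.0276) and lower with NTF2-deletion rescue over knockout (-0.63, adjusted p 0.01004), DUSP16 lower in treated wild-type rescue over untreated knockout (-0.31, adjusted p 0.00192), DUSP1 higher in knockout against rescue (0.29, adjusted p 0.0255) and DUSP10 higher in knockout against wild-type (0.42, adjusted p 0.0488). It ended that of DUSP6 for NTF2-deletion rescue minus knockout, both treated (1.20, adjusted p 0.0821).

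Leaving out 1 library at a time in limma gave these ranges of members called: 5 to 6 for knockout against wild-type, 4 to 6 for knockout against rescue, 5 to 6 for wild-type against rescue, 6 to 6, 4 to 6 and 2 to 4 for arsenite in knockout, wild-type rescue and NTF2-deletion rescue, 7 to 8 and 8 to 8 for the rescues over knockout, 6 to 7 and 7 to 8 for treated rescues over untreated knockout, 5 to 7, 6 to 6 and 0 to 0 for the response differences, 0 to 1 and 1 to 4 between the rescues without and with arsenite, and 6 to 8 and 7 to 7 for each rescue minus knockout, both treated. Shares over all genes are not given for these refits, so the ranges describe stability of the calls and nothing particular to the members. With all libraries, limma called 36.6% of 16654 tested genes higher and 31.6% lower for wild-type rescue minus knockout, both treated. Without 1 library, DUSP6 ran from -0.35 to 0.34 for knockout against wild-type and from -0.60 to 0.085 for wild-type against rescue, where DUSP16 ran from -0.082 to 0.069. DUSP14 ran from -0.12 to 0.17 for arsenite in knockout, from -0.057 to 0.17 in wild-type rescue and from -0.021 to 0.072 in NTF2-deletion rescue. Its response differences ran from -0.11 to 0.18 (wild-type rescue minus knockout), from -0.14 to 0.15 (NTF2-deletion rescue minus knockout) and from -0.14 to 0.084 (between the rescues), and its untreated difference between the rescues from -0.025 to 0.20. DUSP5 ran from -0.081 to 0.023 in the response difference between the rescues.

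No paired analysis was possible because the recovered libraries carry no replicate numbers. Leave-one-out and limma were not run for RIP, where reads per library were not recovered, or for the difference between experiments. The second experiment is shallower than the first, and DUSP6 at 10 to 70 reads per library there is limited by counting.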
